A study of Mus musculus with 6 samples.

Results

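The genes described here encode the plaque of the desmosome and of the cornified envelope, and were taken as a list of 10 symbols, Dsp, Dsg2, Dsc2, Pkp1, Pkp2, Pkp3, Jup, Ppl, Evpl and Perp. Every probe set annotated to one of these symbols alone was used, which gave 22 probe sets for the 10 genes out of 18193 genes on the array. The list was set by gene name and not by a rule on measured values, but with earlier results of these data known. RNA came from 344SQ, a lung adenocarcinoma line grown out of a subcutaneous metastasis in a single mouse of the genotype p53R172HΔg/+ K-rasLA1/+, so that both groups carry the mutant p53 allele and the activated K-ras allele. One group, called miR-200, had been transduced with a lentivirus that expresses the microRNA cluster miR-200b-200a-429, and the other, called control, with the control vector. Both were kept as GFP-positive pools under puromycin and grown in medium with serum as 3 cultures each (A, B and C), with 1 array per culture. Nothing in the labels says that the cultures of a group came from separate transductions. The p-values therefore reflect only how much cultures varied, and an effect of the microRNAs cannot be told apart from any other difference between the transduced pools.

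Desmosomes are spot-like junctions that anchor the intermediate filaments of neighbouring epithelial cells to one another. Desmogleins and desmocollins are cadherins that span the membrane and bind the next cell, plakoglobin (Jup) and the plakophilins bind the tails of the cadherins, and desmoplakin (Dsp) ties this plaque to keratin filaments. Periplakin (Ppl) and envoplakin (Evpl) are related plakins that pair with each other in the desmosome and in the cornified envelope of keratinocytes, and Perp is a tetraspan membrane protein of the desmosome that is a target of p53 and p63. The miR-200 family is best known for lowering Zeb1 and Zeb2, which are repressors of epithelial junction genes.

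The mature microRNAs of the cluster are shown because they are what distinguishes the groups, with the seed (bases 2 to 8), the part that chiefly selects targets, in capitals. They are the 3p strands as listed by RefSeq for GRCm38.p6, and all lie on the minus strand, at chr4:156055685-156055706 for miR-200b, chr4:156054911-156054932 for miR-200a and chr4:156053916-156053937 for miR-429. The microRNAs themselves were not analysed here.
mmu-miR-200b-3p: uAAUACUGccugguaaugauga
mmu-miR-429-3p: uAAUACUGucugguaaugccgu
mmu-miR-200a-3p: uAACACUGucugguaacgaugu
miR-200b and miR-429 share the seed AAUACUG, and miR-200a has the seed AACACUG.

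Levels are quantile-normalized log2 signals. Differences are miR-200 minus control on the log2 scale, with standard errors (after ±) from limma, and each adjusted p is a Benjamini-Hochberg value taken over the whole array of 45037 probe sets. As a gauge of background, the brightest reading of the bacterial trp spike controls was used, 5.28. A gene with several probe sets is represented by the brightest, and the others are given beside it. Levels of different probe sets depend on the probes and were not set against each other. The number of arrays, 3 per group, limits the precision.

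The keratins Krt8 and Krt18 and E-cadherin (Cdh1) lay between 13.14 and 13.94 on all 6 arrays, as in epithelial cells. The sum of the linear signals of 9 lung epithelial markers ranged from 45338 to 46649 in the miR-200 cultures and from 54484 to 55081 in the control cultures. One of them, the surfactant protein gene Sftpb, was chosen after its values were seen and read 6.57, 6.55 and 6.51 in the miR-200 cultures, against 12.38, 13.01 and 12.34 in the control cultures (limma, adjusted p = 0.00249). The lung factor Nkx2-1 read 6.55, 7.08 and 7.01 in the miR-200 cultures and 7.06, 6.81 and 7.36 in the control cultures. Of the other lung markers Sftpc lay under the gauge on all arrays. Of 11 blood, endothelial and fibroblast markers measured, 5 lay above the gauge on average and 6 under it, and the sum of their linear signals ranged from 457 to 875 in the miR-200 cultures and from 433 to 845 in the control cultures. The macrophage marker Cd68, chosen after its values were seen, read 8.98, 5.73 and 5.97 in the miR-200 cultures, against 6.81, 8.87 and 6.46 in the control cultures. The blood marker Ptprc, chosen likewise, had another order in the miR-200 cultures. It read 5.44, 5.75 and 5.30 there, against 5.29, 5.91 and 5.59 in the control cultures. Of 8 markers of squamous and basal cells, which are rich in desmosomes, 7 were measured and 6 lay above the gauge. Their summed signal ranged from 460 to 1063 in the miR-200 cultures and from 884 to 2499 in the control cultures. Such a sum depends on its brightest genes, and Ivl, chosen after its values were seen, read 9.52 on miR-200 A and 10.92 on control B. Krt14, chosen likewise, was brighter than Ivl on control A and C. It read 5.38, 6.71 and 6.99 on miR-200 A, B and C, and 8.91, 8.09 and 8.89 on control A, B and C. The list medians were 5.85, 5.81 and 5.77 on miR-200 A, B and C, and 5.93, 5.92 and 6.23 on control A, B and C. None of the 11 blood, endothelial and fibroblast markers was at 0 on all arrays. Lyz2 read 0.00, 0.25 and 3.67 on miR-200 A, B and C, and 0.00, 0.28 and 2.79 on control A, B and C. The array miR-200 A and the array control B stood apart from the others of their groups, with low levels of proliferation genes. The median of 11 such genes was 9.0, 12.15 and 12.31 on miR-200 A, B and C, and 11.84, 9.08 and 11.80 on control A, B and C. Results described as moving with these arrays are given with and without them, and the part of the marker genes in the results was not tested.

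No plaque gene passed the threshold of an adjusted p of 0.05, and Pkp3 came closest. Of the 22 probe sets 0 passed in limma, while 0.744% of all probe sets did, and 10 of the 22 had an unadjusted p under 0.05, against 14.1% of all probe sets. Several of those 10 probe sets belong to the same gene. By gene the count that passed was 0 of 10, against 0.945% of all genes. At an unadjusted p under 0.05 it was 4 of 10, against 14.8% of all genes. Of the 10 genes, Pkp3 was higher in every miR-200 culture than in every control culture, a pattern that 11.4% of all genes had. Dsg2, Dsc2 and Pkp2 were lower in every miR-200 culture, a pattern of 12.1% of all genes. In the other 6 genes, Dsp, Pkp1, Jup, Ppl, Evpl and Perp, the groups overlapped. These patterns are those of the brightest probe sets, and other probe sets of Dsp and Dsg2 differed from them, as given below. The median difference of the 10 genes was -0.20, with 2 above 0 and 8 below, and the median of all genes was 0.0014.

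**Figure D1:**
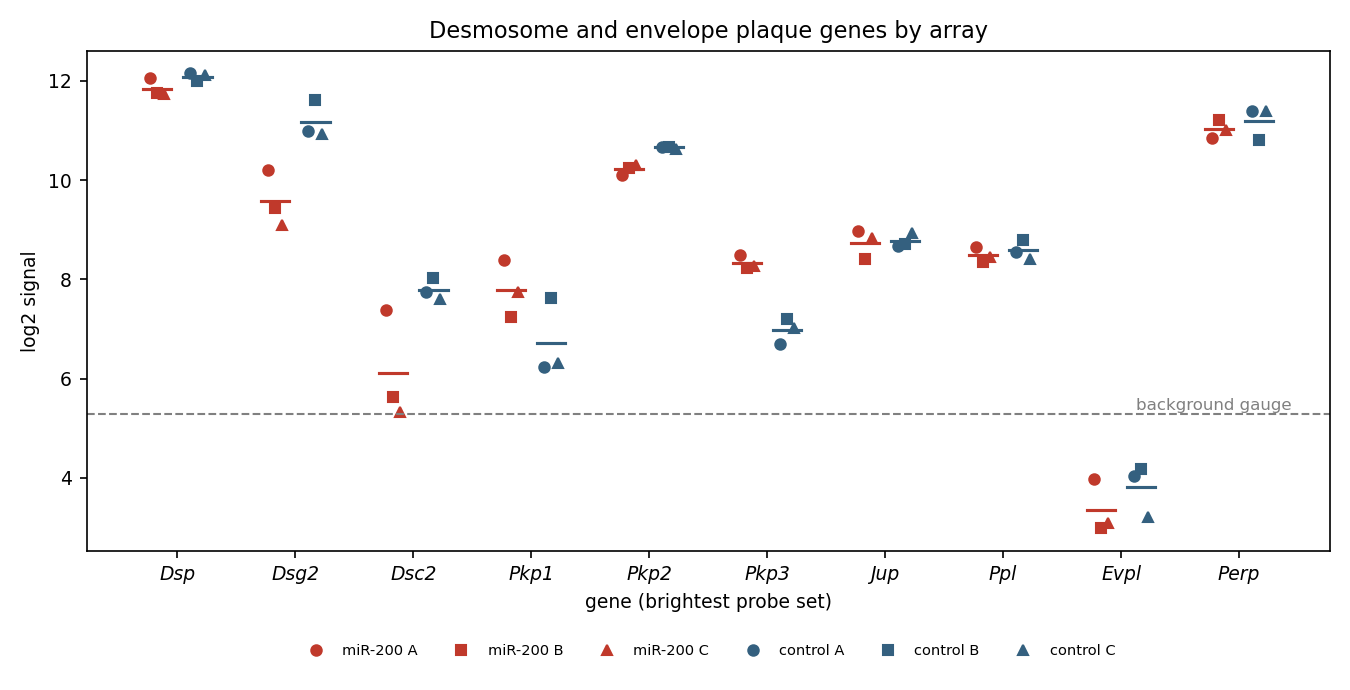
Log2 signal (vertical axis) of the brightest probe set of each of the 10 genes on each array, with miR-200 cultures in red to the left, control cultures in blue to the right, short lines for the group means (n = 3) and a dashed line at the background gauge of 5.28. The groups are separate for Pkp3, Dsg2, Dsc2 and Pkp2, and Evpl lies under the gauge on all 6 arrays.

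The plakophilins are armadillo proteins that cluster the cadherins and recruit desmoplakin, and the 3 of them differed in direction. Pkp3, the plakophilin found in most simple and stratified epithelia, read 8.49, 8.24 and 8.27 on miR-200 A, B and C, and 6.70, 7.20 and 7.03 on control A, B and C. The groups were separate by more than 1 log2 unit, the lowest miR-200 culture against the highest control culture. The means were 8.33 ± 0.14 in miR-200 cells and 6.97 ± 0.25 in control cells (SD, n = 3 each), a difference of 1.35 ± 0.18 or 2.56-fold with an adjusted p = 0.0510 in limma, just outside the threshold. The 95% interval of the difference ran from 0.91 to 1.80. In RNA from whole cultures, fewer cells expressing a gene and less of its RNA per cell cannot be told apart.

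The second probe set of Pkp3 (1418832_at) lay under the background gauge in both groups, so no fold is given for it. It read 4.31, 4.07 and 5.25 on miR-200 A, B and C, and 1.73, 0.13 and 1.33 on control A, B and C. Here too the groups did not overlap, with a difference of 3.48 ± 0.52 (adjusted p = 0.0677). With the mean of both probe sets as the value of the gene the adjusted p was 0.0135, in a fit where 1.47% of genes passed, but that value averages in signal under the gauge on all 6 arrays and is not read as a call.

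Pkp2, the plakophilin of heart and simple epithelia, had lower values in miR-200 cells on 3 of its 4 probe sets. The brightest (1449799_s_at) read 10.10, 10.25 and 10.30 on miR-200 A, B and C, and 10.67, 10.68 and 10.63 on control A, B and C. Its control cultures lay within 0.05 of one another and above all miR-200 cultures, yet the difference was small, -0.44 ± 0.12 or 1.36-fold lower (adjusted p = 0.219). On 1429183_at the values were 9.02, 9.09 and 9.10 in miR-200 cells, and 9.66, 9.82 and 9.58 in control cells, again without overlap. That difference was -0.62 ± 0.13 (adjusted p = 0.127). On 1420259_at the miR-200 mean of 4.65 lay under the gauge, and the control mean of 5.57 lay 1.22-fold above it. The fitted difference was -0.92 ± 0.20 (adjusted p = 0.147). Control C, at 5.27, was also under the gauge, so the size of the difference is uncertain. The remaining probe set, 1460511_at, differed by 0.014 ± 0.15, with a 95% interval from -0.36 to 0.39.

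Pkp1, the plakophilin of the upper layers of the epidermis, was measured by 1 probe set. It read 8.39, 7.24 and 7.74 on miR-200 A, B and C, and 6.23, 7.62 and 6.32 on control A, B and C. The array of control B lay above miR-200 B, and each of the arrays that stand apart was the highest of its group. The difference was 1.07 ± 0.49 (adjusted p = 0.405). Between miR-200 A and control B it was 0.77, and between the other arrays 1.21. Without both arrays it kept its direction and did not pass (1.21 ± 0.22, adjusted p = 0.139, where 0.229% of probe sets passed).

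**Figure D2:**
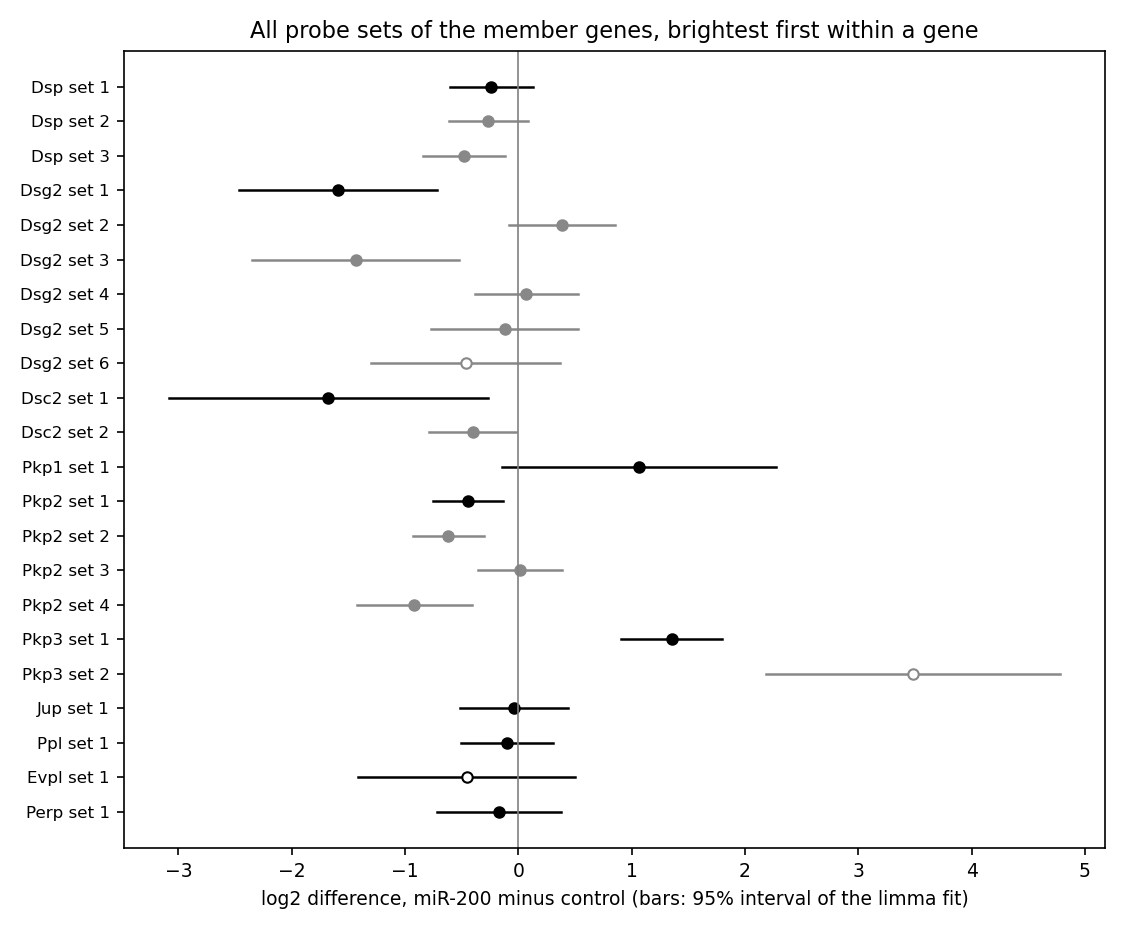
Log2 difference, miR-200 minus control (horizontal axis), of all 22 probe sets with the 95% interval of the limma fit as bars, the brightest probe set of each gene in black, the others in grey, and open circles where both group means lay under the background gauge. Both probe sets of Pkp3 lie above 0, at 1.35 and 3.48, and those of Dsg2 range from -1.59 to 0.38.

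Dsg2, the desmoglein of simple epithelia, gave different answers on its 6 probe sets. The brightest (1439476_at) read 10.20, 9.43 and 9.10 on miR-200 A, B and C, and 10.98, 11.61 and 10.93 on control A, B and C. All miR-200 cultures lay below all control cultures, with the arrays that stand apart highest in each group. The means were 9.58 ± 0.56 in miR-200 cells and 11.17 ± 0.38 in control cells (SD, n = 3 each), a difference of -1.59 ± 0.35 or 3.02-fold lower (adjusted p = 0.142). The 95% interval ran from -2.47 to -0.72. Without the arrays that stand apart the difference was -1.69 ± 0.16 and did not pass (adjusted p = 0.0845).

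A second probe set of Dsg2 (1449740_s_at) gave 9.59, 8.59 and 8.73 in miR-200 cells, against 10.15, 10.95 and 10.12 in control cells. It was likewise without overlap, with a difference of -1.43 ± 0.37 (adjusted p = 0.189). Its neighbour 1449741_at, which the platform annotation derives from the same cDNA sequence, read 8.97, 8.79 and 8.71 in miR-200 cells, against 8.53, 9.04 and 8.69 in control cells. There the groups overlapped and the difference was 0.070 ± 0.18, with a 95% interval from -0.38 to 0.52. On 1460380_at the order was the opposite of the brightest probe set. The miR-200 cultures read 9.89, 10.04 and 9.93, and the control cultures 9.24, 9.66 and 9.82, a difference of 0.38 ± 0.19 (adjusted p = 0.433). For 1425619_s_at the difference was -0.12 ± 0.26 with overlapping groups, and 1426153_a_at lay under the gauge on all arrays. The mean of the 6 probe sets differed by -0.53 ± 0.23 (adjusted p = 0.369). Which transcripts the probe sets match was not tested.

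**Figure D3:**
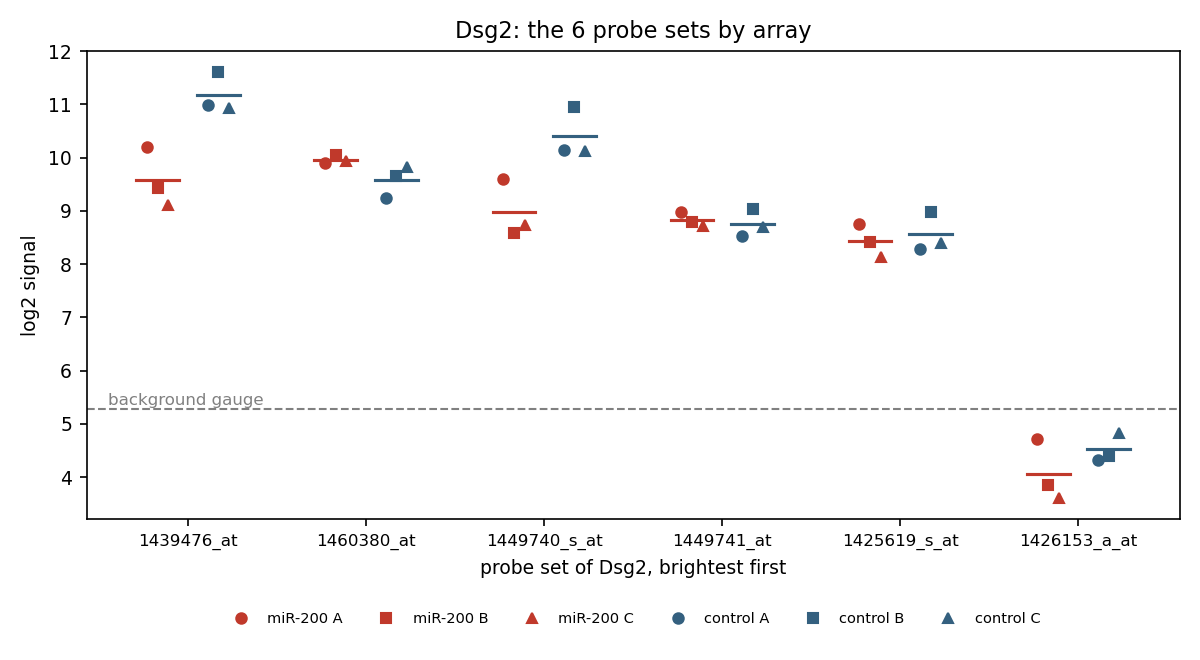
Log2 signal (vertical axis) of the 6 probe sets of Dsg2 on each array, with miR-200 cultures in red to the left, control cultures in blue to the right, short lines for the group means (n = 3) and a dashed line at the background gauge. The miR-200 cultures lie below all control cultures on 1439476_at and 1449740_s_at, above them on 1460380_at, and among them on the other 3.

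Dsc2, the desmocollin of simple epithelia, had the largest difference of the 10 genes on the brightest probe sets, and most of its spread came from 1 culture. It read 7.39, 5.62 and 5.33 on miR-200 A, B and C, and 7.75, 8.02 and 7.61 on control A, B and C. The groups did not overlap, but miR-200 A, 1 of the arrays that stand apart, lay close to the control cultures. The means were 6.11 ± 1.11 in miR-200 cells and 7.79 ± 0.21 in control cells (SD, n = 3 each), a difference of -1.68 ± 0.57 or 3.20-fold lower (adjusted p = 0.284). Without miR-200 A the difference was -2.31 ± 0.19 and passed (limma, adjusted p = 0.0356), the single probe set of the 22 to do so in a fit where 0.728% of all probe sets passed. Without both arrays that stand apart it was -2.20 ± 0.16 and did not pass (adjusted p = 0.0680). The dimmer probe set (1421156_a_at) gave 6.53, 6.27 and 6.48 in miR-200 cells, against 6.67, 7.02 and 6.80 in control cells, a difference of -0.40 ± 0.15 (adjusted p = 0.338).

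The 5 genes whose brightest probe sets followed Dsc2 most closely over the 6 arrays were Mgst1, Blvrb, Cxcl5, Btg2 and Slc12a1, with Pearson correlations from 0.997 for Slc12a1 up to 0.9997 for Mgst1. All of them shared the pattern of a high miR-200 A beside low miR-200 B and C. Cxcl5, a neutrophil chemokine, read 11.99, 8.53 and 8.19 in the miR-200 cultures, against 12.65, 13.52 and 12.67 in the control cultures (adjusted p = 0.260). Mgst1, a microsomal glutathione transferase, read 11.79, 8.72 and 8.27 in the miR-200 cultures, against 12.31, 12.87 and 12.23 in the control cultures (adjusted p = 0.281). With 6 arrays, 2 groups and 2 arrays that stand apart, such correlations describe these arrays only.

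The desmosomal cadherins form a single cluster of 9 neighbouring genes in the RefSeq annotation, in the order Dsc3, Dsc2, Dsc1, Dsg1c, Dsg1a, Dsg1b, Dsg4, Dsg3 and Dsg2, with Dsc2 and Dsg2 near its ends. Of these, 6 had a probe set annotated to them alone. Dsc3, the desmocollin of basal epidermal cells, was above the gauge and read 6.80, 7.18 and 7.02 in miR-200 cells, against 7.41, 6.93 and 7.42 in control cells, with overlapping groups (-0.25 ± 0.20, adjusted p = 0.642). Dsc1, Dsg1a and Dsg1b, cadherins of the upper epidermis, lay under the gauge in both groups. The values below the gauge say little about any difference in these 3 genes.

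Dsp, the plakin that links the plaque to keratin, was bright on 2 of its 3 probe sets and differed little. The brightest (1435493_at) read 12.05, 11.76 and 11.73 on miR-200 A, B and C, and 12.15, 11.99 and 12.11 on control A, B and C. Only miR-200 A reached into the control range. The difference was -0.24 ± 0.15 (adjusted p = 0.532), with a 95% interval from -0.60 to 0.13. On 1435494_s_at the values were 11.79, 11.51 and 11.52 in miR-200 cells, against 11.92, 11.79 and 11.90 in control cells. The groups were just separate there, with a difference of -0.27 ± 0.14 (adjusted p = 0.465). The third, 1427610_at, had a miR-200 mean of 5.22, under the gauge, against 5.70 in control cells, 1.34-fold above the gauge. The groups did not overlap there, and the fitted difference was -0.48 ± 0.15 (adjusted p = 0.247). Its 95% interval ran from -0.84 to -0.12. All 3 probe sets were thus below 0 without passing.

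Jup, which encodes plakoglobin and serves both desmosomes and adherens junctions, showed no detectable difference. It read 8.97, 8.41 and 8.82 on miR-200 A, B and C, and 8.67, 8.72 and 8.93 on control A, B and C, with the control values inside the range of the miR-200 values. The difference was -0.037 ± 0.19 (adjusted p = 0.957), and its 95% interval, from -0.52 to 0.44, still allows a change of that size either way. Perp read 10.86, 11.22 and 11.01 on miR-200 A, B and C, and 11.40, 10.81 and 11.40 on control A, B and C. Control B was its lowest array and miR-200 A the next, and the difference was -0.17 ± 0.22 (adjusted p = 0.776, interval -0.72 to 0.37). Between miR-200 A and control B it was 0.050, and without both arrays -0.28 ± 0.12 (adjusted p = 0.323).

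Of the plakins shared with the cornified envelope, Ppl was present and Evpl was not above background. Ppl read 8.65, 8.35 and 8.46 on miR-200 A, B and C, and 8.55, 8.79 and 8.42 on control A, B and C. The groups overlapped, with a difference of -0.10 ± 0.16 (adjusted p = 0.829, interval -0.50 to 0.30). Evpl, its usual partner, read 3.98, 2.99 and 3.08 in miR-200 cells, against 4.03, 4.18 and 3.21 in control cells, all below the gauge of 5.28. No fold is given for Evpl, and its fitted difference was -0.46 ± 0.38 (adjusted p = 0.660).

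Around the plaque, 7 related lists were counted in the same fit, and 1 of their 71 measured genes passed, Cdh2, against 0.945% of all genes. At an unadjusted p under 0.05 the count was 12 of 71, against 14.8% of all genes. The 6 other desmosome genes measured, of 9 listed, had 0 calls and 0 at an unadjusted p under 0.05. Pkp4, an armadillo relative of the plakophilins, was the brightest of them and differed by 0.023 ± 0.22 (adjusted p = 0.980), and corneodesmosin (Cdsn), an adhesion protein of cornified cells, by 0.081 ± 0.14 (adjusted p = 0.842). The lists of 4 other plakins and of 6 hemidesmosome genes also had 0 calls and 0 at an unadjusted p under 0.05. Their median differences were 0.10 and 0.13, against 0.0014 over all genes. Plectin (Plec), which links keratin to several junctions, read 9.49, 10.71 and 11.20 in miR-200 cells, against 11.01, 10.42 and 10.90 in control cells. Without miR-200 A, its lowest array, and control B its difference was 0.0051 ± 0.22, against -0.31 ± 0.47 with them. The other bright plakins, Macf1 and Eppk1, differed by -0.020 ± 0.13 and 0.26 ± 0.24. Itga6, the integrin subunit of the hemidesmosome, differed by -0.25 ± 0.12 (adjusted p = 0.422). Its partners in that list, Cd151 and Lamb3, differed by -0.12 ± 0.19 and 0.24 ± 0.21, with overlapping groups.

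**Figure D4:**
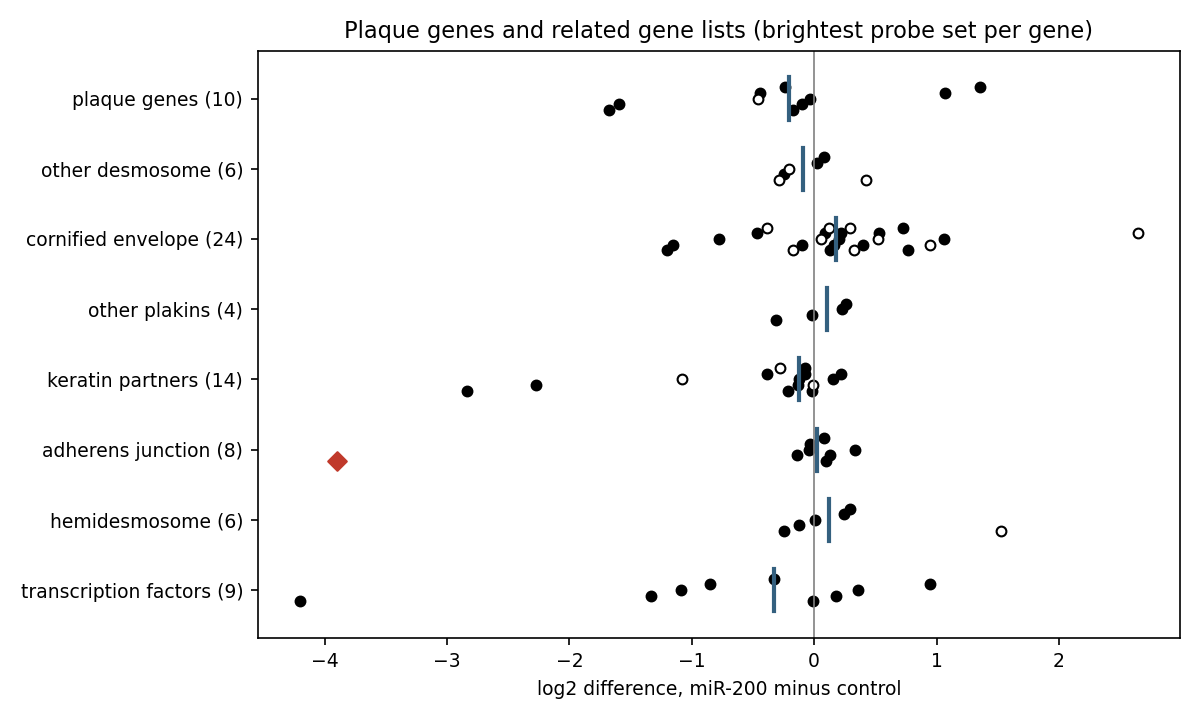
Log2 difference, miR-200 minus control (horizontal axis), of the 10 plaque genes and of the genes of 7 related lists, 1 point per gene at its brightest probe set, with the number of genes in brackets, blue lines at the medians and open circles where both group means lay under the background gauge. The red diamond is Cdh2, at -3.90 the single gene past the threshold.

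The cornified envelope list held 24 measured genes, of 28 listed, with 0 calls and 3 at an unadjusted p under 0.05, 2 higher and 1 lower, against the 14.8% of all genes. One of the 3, Krtdap, lay under the gauge in both groups. The median difference of the whole list was 0.18. Sprr1a, a small proline-rich envelope precursor, read 13.58, 12.90 and 12.90 in miR-200 cells, against 12.08, 12.18 and 11.94 in control cells. The groups were separate, and the difference of 1.06 ± 0.23 or 2.08-fold did not pass (adjusted p = 0.139). Sciellin (Scel), another envelope precursor, read 9.41, 10.56 and 10.60 in miR-200 cells, against 11.35, 11.36 and 11.34 in control cells, a difference of -1.16 ± 0.35 (adjusted p = 0.244). Casp14, a protease of cornifying cells, differed by 0.13 ± 0.17 (adjusted p = 0.782). Involucrin (Ivl), chosen after its values were seen, moved with the arrays that stand apart. It read 9.52 on miR-200 A and 10.92 on control B, and between 5.67 and 7.09 on the other 4 arrays. The difference was -1.21 ± 1.58, and -1.10 ± 0.22 without those arrays (adjusted p = 0.152).

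Keratins are the filaments that desmosomes anchor, and of 14 measured 0 passed and 3 had an unadjusted p under 0.05, all lower, against 8.47% of all genes in that direction. Krt18 and Krt8, the pair of simple epithelia, differed by -0.020 ± 0.11 and -0.073 ± 0.13. For Krt18, quantile normalization gave the same 13.90 to miR-200 A and control B, and the same 13.94 to control A and control C. Whether so bright a signal can still show a difference was not tested. Krt19, their simple-epithelial relative, read 12.96, 12.98 and 13.03 in miR-200 cells, against 13.53, 13.18 and 13.43 in control cells, lower in 3 of 3 cultures (-0.39 ± 0.14, adjusted p = 0.315). The other 2, chosen after their values were seen, were Krt20 (-2.83 ± 0.71, adjusted p = 0.182) and Krt14 (-2.27 ± 0.49, adjusted p = 0.140). Krt20 read 10.47, 8.05 and 7.99 in miR-200 cells, against 11.62, 11.90 and 11.49 in control cells. Without the arrays that stand apart its difference was -3.54 ± 0.11 and passed (limma, adjusted p = 0.0480), as 0.229% of all probe sets did. Those arrays were picked from the same values, which can make that p-value too small.

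The adherens junction, which shares plakoglobin with the desmosome, held the single call. Cdh2 (N-cadherin) read 6.05, 6.31 and 6.46 in miR-200 cells, against 9.86, 10.72 and 9.94 in control cells. It fell by 3.90 ± 0.28 (limma, adjusted p = 0.00985), the 1 of 8 measured genes of that list to pass. The call was lost without miR-200 B, miR-200 C, control A or control C (adjusted p from 0.0591 to 0.0793) and with the letter as a replicate block (adjusted p = 0.155), with differences from -4.06 to -3.90. Ctnnb1 (beta-catenin), the closest relative of plakoglobin, differed by -0.041 ± 0.14 (adjusted p = 0.928), Cdh1 by 0.098 ± 0.14 (adjusted p = 0.804) and Ctnna1 (alpha-catenin) by -0.14 ± 0.12 (adjusted p = 0.664). Among 9 transcription factors that act on junction genes, 0 passed and 4 had an unadjusted p under 0.05, all lower, against 8.47% of all genes in that direction. Those 4, of which all but Klf4 were chosen after their values were seen, were Klf4 (-1.33 ± 0.29), Grhl3 (-4.20 ± 0.85), Zeb1 (-1.08 ± 0.34) and Zeb2 (-0.85 ± 0.22), with adjusted p from 0.124 to 0.255. Grhl3, an activator of epidermal envelope genes, read 7.43, 4.69 and 4.71 in miR-200 cells, against 9.50, 10.62 and 9.32 in control cells. As miR-200 B and C lay under the gauge, the size of its difference is uncertain. This holds also without the arrays that stand apart, where it passed (limma, adjusted p = 0.0480), as 0.229% of all probe sets did. The choice of those arrays from the same values limits that call too. Its relative Grhl1 moved with the arrays that stand apart, at 9.78, 7.89 and 8.70 in miR-200 cells, against 7.65, 9.88 and 7.77 in control cells. The difference of Grhl1 was 0.36 ± 0.78, and 0.59 ± 0.34 without those arrays (adjusted p = 0.426). Snai2 differed by -0.011 ± 0.24 (adjusted p = 0.995).

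Several plaque genes passed under other processing choices. With the dimmest 40% of probe sets left out, Pkp3 passed (adjusted p = 0.0134), as 3.42% of the probe sets kept did. A variance trend together with robust variance estimation let 3 of the 22 probe sets pass, both of Pkp3 and the brightest of Dsg2, against 2.11% of all probe sets. Array weights let the same 3 pass, against 2.87%. A 2-level term for miR-200 A and control B let 4 pass, both of Pkp3 (adjusted p = 0.0305 and 0.0450) and 2 of Dsg2 (adjusted p = 0.0280 and 0.0200), against 2.10%. With that term and without the dimmest 40%, 7 of the 17 member probe sets kept passed, against 17.0%. They were 1 of Pkp3 and the probe set of Pkp1, both higher, and 2 of Dsg2, 2 of Pkp2 and 1 of Dsc2, all lower. None of Pkp1, Pkp2 and Dsc2 passed with the term alone or the filter alone. The term was read from the same values that are tested, which makes its p-values smaller than they should be, by how much is not known. Leaving out miR-200 A and control B rests on the same choice and has the same limit.

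**Figure D5:**
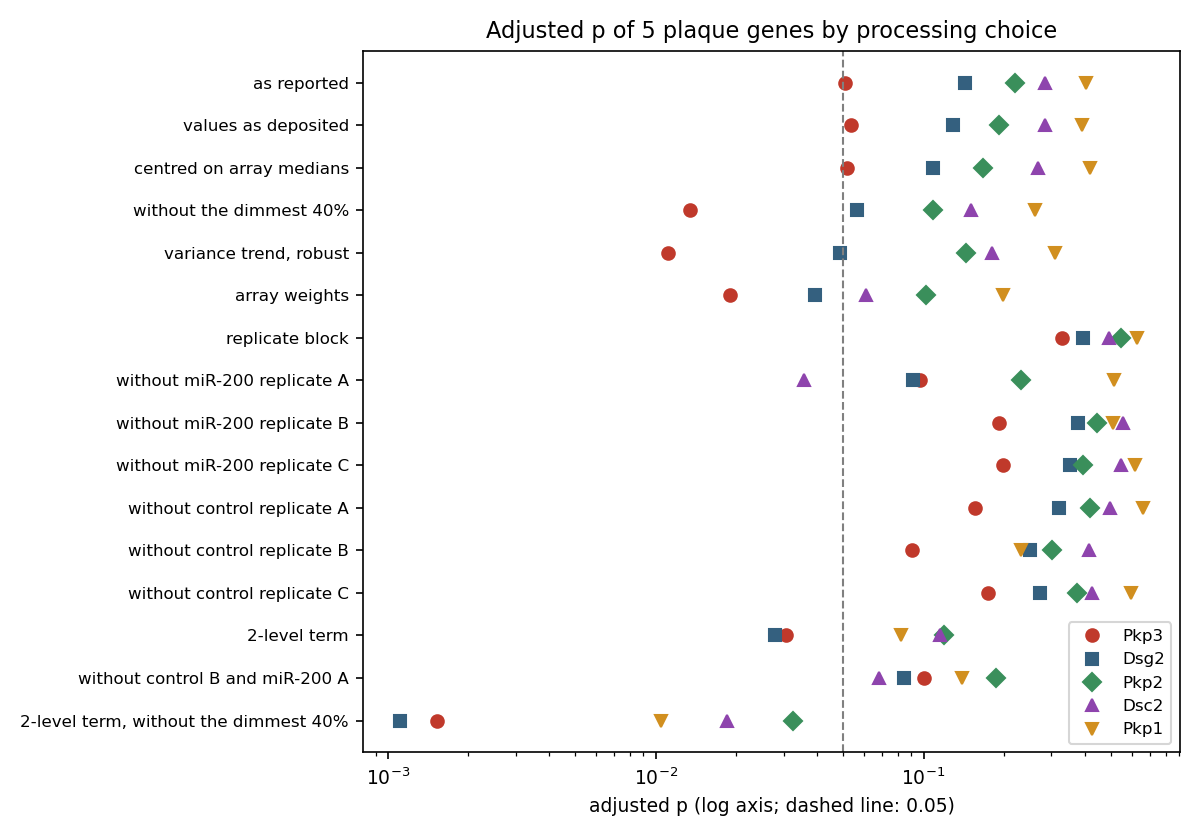
Adjusted p in limma (horizontal log axis, dashed line at 0.05) of the brightest probe sets of Pkp3, Dsg2, Pkp2, Dsc2 and Pkp1 under each processing choice (vertical axis). Pkp3 lies at 0.0510 as reported and ranges from 0.00152 to 0.328 over the choices drawn here.

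Direction was steadier than the calls, but largely by construction. Under the filter, the variance trend, the replicate block and the 2-level term a probe set keeps its difference. Where the groups do not overlap, leaving out arrays cannot turn the sign. The steady direction is therefore not a separate check. Over 15 alternatives the brightest probe set of Pkp3 stayed above 0, from 1.22 to 1.47, and passed in 5. That of Dsg2 stayed below 0, from -1.90 to -1.36, and passed in 4. Dsc2 ranged from -2.31 to -1.29 with 2 passes, Pkp2 from -0.57 to -0.37 with 1, and Pkp1 from 0.77 to 1.51 with 1. Dsp, Jup, Ppl, Evpl and Perp passed in none of the alternatives that measured them.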

How the data were processed

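RNA from 6 cultures, 3 miR-200 and 3 control, was labelled with biotin and hybridized to Affymetrix mouse arrays, per the labels' protocols. The deposited table holds log2 signals for 45101 probe sets; the log2 scale was read from the values, and the authors' summarisation and normalization steps are not given in the sources used here. Per the labels the array is the smaller 430A 2.0 design, while the table fits the annotation of the larger one. Array interquartile ranges differed by 0.174, so the table was quantile normalized (limma 3.58.1, R 4.3.3), and 64 control probe sets were then left out. Symbols came from the platform annotation, updated through the RefSeq gene table of GRCm38.p6 (34741 of 34945 probe sets with 1 symbol matched). The model, lmFit and eBayes, two-sided, had the group as its only term; the threshold was an adjusted p of 0.05. The fit was tested on simulated data with noise independent between arrays. That test cannot show how the fit behaves where arrays such as miR-200 A and control B deviate together.

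The members, the related lists and the alternatives were chosen with earlier results of these data known. Named genes were all members, the genes of each list past the threshold with up to 3 of its brightest, and the 5 genes most like the member with the largest difference. Unmeasured list genes were not analysed here. No 2 arrays were identical (correlations 0.946 to 0.976).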

Additional observations from a re-analysis of the deposited data

How the results depend on the processing

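The count of member probe sets past the threshold, 0 as reported, was 1 without the dimmest 40%, 3 with a variance trend and robust estimation together, 3 with array weights, 4 with the 2-level term, and 7 when this term and the filter on the dimmest 40% were combined. Leaving out 1 array gave 0 to 1, the 1 without miR-200 A. The 1 call among the 71 genes of the related lists became 2, 3, 5, 3 and 12 under those same settings in that order. The shares of all probe sets that passed there were 3.42%, 2.11%, 2.87%, 2.10% and 17.0%, and the filter kept 54 of the 71 genes. Without both arrays that stand apart 3 list genes passed, beside 0.229% of all probe sets. Without 1 array the count was 0 to 4. It was highest without miR-200 A (0.728% of all probe sets) and lowest without miR-200 C, miR-200 B, control C or control A. With the letter as a replicate block 0 member probe sets and 0 list genes passed, as did 0 of all 45037 (0.00%), against 4280 at an unadjusted p under 0.05. The correlation of same-letter deviations from the group means was -0.58 (A), -0.67 (B) and 0.43 (C), and that of miR-200 A with control B was 0.71. As these 2 arrays differ in letter and stand apart, the values cannot tell whether the letters pair the cultures. Values as deposited and centring on array medians left the member count at 0.

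Of 158 single-gene values, 141 kept their direction and side of the threshold, 14 gained a call and 3 turned their sign, none of them called. Jup ranged from -0.16 to 0.13 without 1 array (0.13 without miR-200 B, 0.038 without control C), and Ppl from -0.19 to 0.00094 (without control B). Fewer arrays and fewer probe sets act in part by construction; otherwise the cause was not tested. The mean of the gene's probe sets does not apply to probe set counts. Signal under the gauge limits Evpl, the second probe set of Pkp3 and 1 of Dsg2.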
